A study of Mus musculus with 11 samples.

Results

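Kidneys of female mice that lacked both intact copies of Cldn16 (Cldn16 -/-, KO, n = 4) were compared with kidneys of females that had both (Cldn16 +/+, WT, n = 4). Their 8 arrays, 1 per mouse, are part of a set of 11. The other 3 arrays, of heterozygous females (Cldn16 +/-, Het), entered the estimate of the spread and are shown beside the comparison. All mice were 8 weeks old (postnatal day 58 or 59), ate a standard diet after weaning, and shared a mixed background of 129S7/SvEvBrd-Hprtb-m2 and C57BL/6N from an F2 with 1 backcross. The kidneys were frozen after their poles had been cut off, and whole-kidney RNA was hybridised to Illumina mouse bead arrays. The sources used here do not say whether the mice were littermates, and after 1 backcross each mouse carried its own mixture of both strains' alleles. On both slides WT lay at the leading array positions and KO at the last, so position and genotype cannot be told apart. The question taken up here is which transcripts differed between KO and WT kidneys across the whole array, apart from the transporters and channels of the nephron.

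Claudin-16 is a strand protein of tight junctions in the thick ascending limb of Henle's loop. Together with claudin-19 it lets cations pass between the cells, along the positive voltage that salt uptake builds up in the lumen, and so returns magnesium and calcium to the blood. People with mutations of CLDN16 lose both ions in the urine, deposit calcium in the kidney and often go on to renal failure, whereas later nephron segments can raise transcellular uptake of both ions.

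Each array gave an intensity for 45281 probes, of which 18854 to 19742 were detected (detection p under 0.01). Testing covered the 22856 probes whose detection p was under 0.05 on 3 or more of the 11 arrays, and 12179 genes were represented in gene counts by their brightest probe. Pairwise correlations between arrays ran from 0.981 to 0.991. Umod, Slc12a1, Slc12a3, Aqp2 and Lrp2, which mark the thick ascending limb, the distal convoluted tubule, the collecting duct and the proximal tubule, each had a probe detected on all 4 WT and all 4 KO arrays. Levels below are log2 intensities after background correction and quantile normalization, differences are KO minus WT on that scale with the standard error (SE) of limma's fit, and an adjusted p is that fit's Benjamini-Hochberg value over all 22856 probes. In whole-kidney RNA, fewer cells of a type and less RNA per cell cannot be told apart.

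The probe for Cldn16 itself read 9.60, 9.16, 9.67 and 9.58 on the WT arrays and 9.34, 8.58, 8.85 and 9.14 on the KO arrays. KO 1 lay above WT 2, so the groups overlapped, and the signal was detected on every KO array. The difference of -0.53 ± 0.16 did not pass the threshold (adjusted p = 0.227 in limma), nor did an exact two-sided permutation test over the 70 arrangements of the 8 arrays (p = 0.0571, where 0.0286 is the smallest possible). No source used here places the probe inside or outside the deletion, so its signal is no check of the genotype.

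Most transcripts differed little. The median size of the difference over the tested probes was 0.13, the 90th percentile 0.36 and the 99th 0.75, and 50.2% of probes were higher in KO. Only 9 of the 22856 probes, or 0.0394%, passed the adjusted threshold of 0.05, 4 higher and 5 lower. An unadjusted p under 0.05, used below only to rank and count, was reached by 6.72% of probes with KO higher and by 6.17% with KO lower. At an unadjusted p under 0.001 there were 120 probes, against 22.9 that uniform p-values would give. A difference of more than 1 in either direction was seen for 98 probes (46 higher, 52 lower), of which 4 passed. With a shift of each array to a common median in place of quantile normalization, the median over all probes became 0.11, and KO was higher in 86.3% of the probes with an unadjusted p under 0.05, against 52.2% with quantile normalization. Directions of small differences, gene lists included, therefore depend on the scaling, and it is said below where a list turns.

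**Figure D1:**
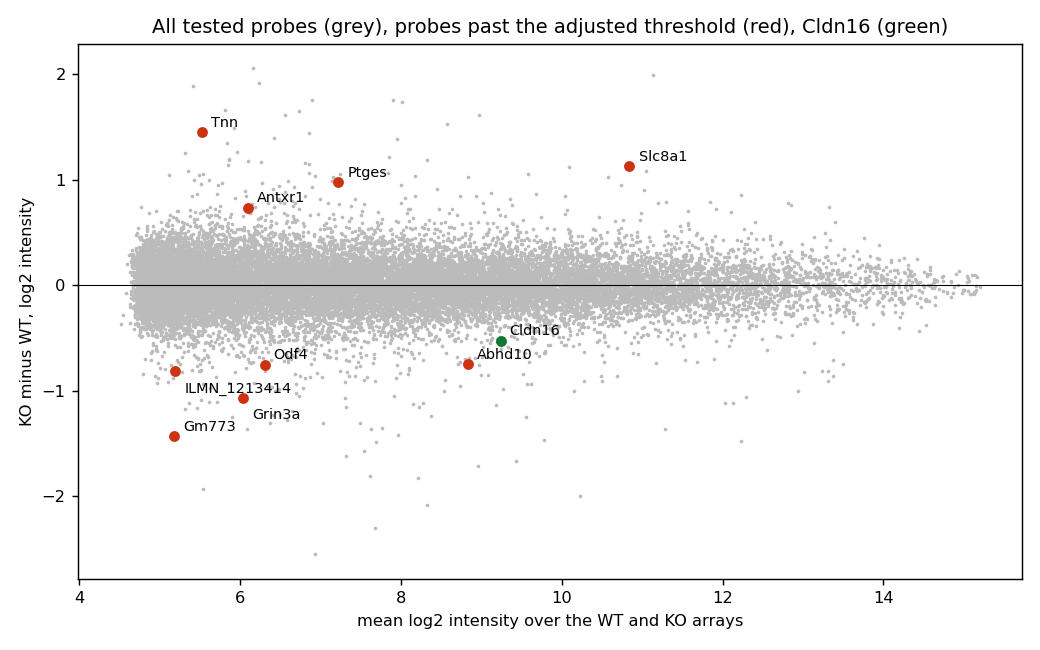
KO minus WT difference (log2 intensity, vertical axis) against the mean log2 intensity of the 8 arrays (horizontal axis), 1 point per tested probe. The 9 probes past the adjusted threshold are red and Cldn16 is green; many probes that did not pass lie farther from 0 than those that did.

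Of the probes that passed, 4 were higher in KO kidneys. Slc8a1 encodes the sodium-calcium exchanger that moves calcium out of distal tubule cells into the blood. Its level was 10.39, 9.99, 10.26 and 10.48 in WT kidneys and 11.39, 11.68, 11.33 and 11.23 in KO kidneys. The lowest KO array stood clear of the highest WT array, the Het arrays (10.54, 10.17 and 10.03) lay among WT or, for Het 1, just above it, and the transcript rose by 1.13 ± 0.15 or 2.18-fold (adjusted p = 0.0291 in limma). Ptges, the inducible synthase of prostaglandin E2, a local regulator of salt and water transport, read 6.98, 6.53, 6.77 and 6.64 in WT and 7.84, 7.59, 7.52 and 7.88 in KO. The groups did not overlap, and it rose by 0.98 ± 0.13 or 1.97-fold (adjusted p = 0.0291). Further probes of both genes pointed the same way without passing, at 0.86 and 0.33 for Slc8a1 and at 0.36 for Ptges.

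The other higher transcripts belong to the extracellular matrix and its receptors. Tnn, tenascin-N, a matrix glycoprotein best known from bone, teeth and peripheral nerves, was below detection on all WT arrays (4.87, 4.45, 4.98 and 4.90) and detected on all KO arrays (6.71, 6.26, 5.68 and 6.36). It was at least 2.15-fold higher in KO (fitted difference 1.45 ± 0.20, adjusted p = 0.0319 in limma). That bound compares the KO mean with the WT mean after raising each WT array to the dimmest detected probe on it, where the probe read less. The Het arrays read 5.31, 5.81 and 5.67, above every WT array, and Het 2 also lay above KO 3. Antxr1, a transmembrane receptor that binds collagen and was first described in tumour endothelium, read 5.78, 5.59, 5.67 and 5.87 in WT and 6.44, 6.44, 6.69 and 6.29 in KO. It rose by 0.74 ± 0.11 or 1.67-fold (adjusted p = 0.0413 in limma), and Het arrays (6.24, 6.17 and 6.13) lay between the groups. A second, brighter probe of Antxr1 gave 0.31 with overlapping groups. Its Het mean of 6.51 lay below its WT mean of 6.63.

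Lower in KO were 5 probes. Grin3a, an NMDA receptor subunit known mainly from neurons, read 6.73, 6.73, 6.68 and 6.13 in WT and 5.40, 5.57, 5.58 and 5.46 in KO. WT 4 stood apart from the other WT arrays but above all of KO, Het (6.37, 6.43 and 6.48) lay within WT, and the transcript fell by 1.07 ± 0.13 (adjusted p = 0.0291 in limma). Odf4, which in the testis encodes a protein of the sperm tail, read 6.72, 6.85, 6.53 and 6.62 in WT and 5.76, 5.87, 5.96 and 6.12 in KO, and fell by 0.75 ± 0.11 (adjusted p = 0.0403). Its groups did not overlap, and a second probe gave -0.67. Abhd10, a hydrolase of mitochondria whose gene lies on chromosome 16 like Cldn16, read 9.38, 9.19, 8.97 and 9.28 in WT and 8.35, 8.44, 8.59 and 8.43 in KO, and fell by 0.75 ± 0.11 (adjusted p = 0.0403). No arrays of the groups overlapped, but a second detected probe of the gene gave -0.07, so its probes disagreed.

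Gm773, an X-linked gene without an assigned function, read 5.51, 6.28, 5.42 and 6.36 in WT and 4.41, 4.41, 4.54 and 4.48 in KO, where no array detected it. It was at least 1.70-fold lower (fitted difference -1.43 ± 0.21, adjusted p = 0.0403 in limma), and a second probe gave -0.93. The probe ILMN_1213414, which has no gene symbol, read 5.78, 5.54, 5.46 and 5.61 in WT and 4.82, 4.65, 4.61 and 5.06 in KO, again detected on no KO array, and was at least 1.38-fold lower (-0.81 ± 0.12, adjusted p = 0.0438). Its Het arrays, at 4.93, 4.88 and 5.13, lay near KO rather than WT.

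**Figure D2:**
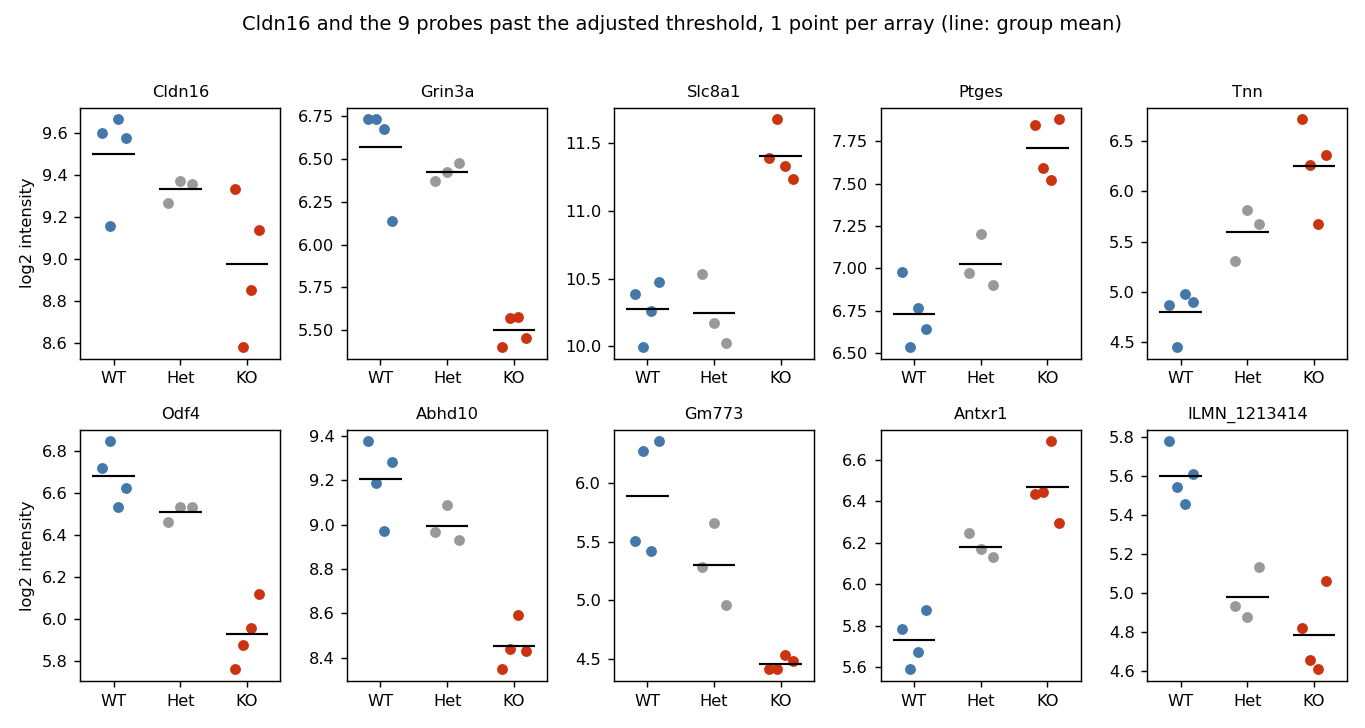
Log2 intensity (vertical axis, a separate range in each panel) of Cldn16 and of the 9 called probes in WT, Het and KO kidneys, 1 point per array, with a line at the group mean. WT and KO points are apart in all panels except that of Cldn16, and the Het points lie near WT for Grin3a and Slc8a1, between the groups for Antxr1, above WT and up to the level of the lowest KO array for Tnn, and near KO for ILMN_1213414.

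All 9 differences kept their sign under each of 25 other settings, which selection by small p from groups that did not overlap favours. The calls did not stay the same. With the slide as a block, Grin3a (adjusted p = 0.0413 in limma), Slc8a1 (0.0413) and Ptges (0.0415) passed, joined by Cyp4a12a (0.0413), and Tnn was at 0.0505. Leaving out 1 array changed the number of called probes from 9 to 0 without WT 1, WT 2, KO 2, Het 2 or Het 3, to 1 without WT 4, to 3 without KO 1, to 7 without KO 4 or Het 1, to 13 without KO 3 and to 15 without WT 3. Within slide 1 there were 13 calls, none of them among the 9, and within slide 2 none by limma, with 1219 probes there at an unadjusted p under 0.05.

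Next in rank came 24 genes, the 12 with the smallest p in each direction among those with 1 symbol that are not nephron transport genes and were detected on every WT or every KO array. None passed the adjusted threshold, and WT and KO arrays did not overlap in any, as the ranking favours. Highest among the higher was Mdk, midkine, a heparin-binding growth factor made by the proximal tubule, at 11.50, 11.40, 11.28 and 11.62 in WT and 12.28, 11.96, 12.46 and 12.28 in KO. KO exceeded WT by 0.79 ± 0.12 (adjusted p = 0.0531 in limma), and the gene's 3 further probes gave 0.65, 0.60 and 0.45. Cyp4a12a, which makes 20-HETE and is kept high in male kidneys by androgen, read 7.07, 6.79, 7.96 and 7.21 in WT and 8.66, 8.20, 8.97 and 8.76 in KO (1.39 ± 0.24, adjusted p = 0.077). With WT 3 the highest of its group, the closest arrays of the 2 genotypes were 7.96 and 8.20.

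The other 10 higher genes differed by 0.59 to 0.85. Among them were Tpd52l1 (0.85), Cab39l (0.68), a scaffold of the LKB1 kinase complex that also activates the kinases upstream of the salt cotransporters, Bmpr1b (0.67), a receptor for bone morphogenetic proteins, and Ormdl3 (0.59), which holds sphingolipid synthesis in check. Cndp1 (0.66) encodes carnosinase, Fads3 (0.70) a fatty acid desaturase of sphingolipids, and Zhx2 (0.67) a transcriptional repressor. Spidr (0.78), a DNA repair scaffold, and Clec16a (0.77), a regulator of mitophagy, lie on chromosome 16. Nfic (0.59) is a transcription factor whose 3 further probes gave 0.11, -0.11 and 0.02, so that its probes disagreed. Second probes were also well below the first for Tpd52l1 (0.19), Cab39l (0.15) and Fads3 (0.18), and that of Bmpr1b gave 0.45. The second probe of Fads3 was detected on 0 WT arrays and 1 KO array.

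The 12 lower genes differed by -1.93 to -0.52. Cd52, a small surface glycoprotein of lymphocytes and monocytes, read 9.01, 9.02, 9.09 and 9.02 in WT and 7.90, 7.56, 8.60 and 8.07 in KO (means 9.04 and 8.03, adjusted p = 0.077 in limma), and its second probe gave -1.23. The WT arrays lay within 0.1 of each other, and the Het arrays (8.35, 8.64 and 8.41) fell in the range of KO or just above it. Aif1, a macrophage calcium-binding protein, differed by -0.52 on this probe and -0.53 on another. Emp3, a membrane protein of leukocytes and fibroblasts, differed by -0.68 on this probe and -0.74 on another. Cd3d and Trbv13-2, of the T cell receptor complex, differed by -0.55 and -0.82. Both were close to background, each detected on 4 WT arrays but only 1 KO array. Ube2l6, which conjugates the interferon-induced modifier ISG15, differed by -0.60 with a second probe at 0.09. Olfml3, a secreted protein of microglia and vessels, differed by -0.54, and Frmd8, which stabilises the sheddase iRhom complex, by -0.92 with a second probe at 0.20. That second probe of Frmd8 was detected on 0 WT arrays and 1 KO array.

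Csta2, a cysteine protease inhibitor of the stefin family on chromosome 16, was detected in all WT kidneys (6.97, 7.25, 5.23 and 6.58) and in no KO kidney (4.58, 4.63, 4.70 and 4.40), and was at least 2.60-fold lower in KO (-1.93 ± 0.36, adjusted p = 0.102 in limma). WT 3 lay nearer to KO than to the other WT arrays. Cmss1 (-1.23) and Cd200 (-1.05), a surface glycoprotein that restrains myeloid cells, are also on chromosome 16, and 2 further probes of Cd200 gave -0.16 and -0.69. The remaining gene of the 12, the ribosomal protein Rps25, differed by -0.71.

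Detection itself separated the genotypes for few probes. On all 4 KO arrays and no WT array, 23 probes were detected, among them Tnn, Tgfb3 (0.50), a growth factor of the TGF-beta family, and Slc39a3 (0.49), a zinc importer. On all 4 WT arrays and no KO array, 18 were detected, among them Gm773, Csta2 and Piezo1 (-0.39), a mechanosensitive channel. Apart from Tnn, Gm773, ILMN_1213414 and Csta2, the lower bounds of the folds for these probes ran from 1.03 to 1.30.

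Genes of MHC class II antigen presentation, by which peptides of extracellular proteins are shown to helper T cells, lay higher in KO kidneys. Of 11 measured genes, 10 were higher and 1, Ctss, was lower, with a median of 0.36 beside 0.0024 over all 12179 genes. An unadjusted p under 0.05 was reached by 7 with KO higher and by 0 with KO lower, and all 4 KO arrays lay above all 4 WT arrays for 4. The corresponding shares of all genes were 6.91% higher and 5.82% lower, with KO above WT on all arrays in 3.86%. No member passed the adjusted test in limma.

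H2-Ab1, the beta chain of the class II molecule I-A, read 10.58, 10.83, 10.93 and 10.87 in WT and 11.47, 11.80, 11.68 and 11.39 in KO (0.78 ± 0.23, adjusted p = 0.218 in limma). H2-DMa, part of the H2-DM complex that loads peptides onto class II molecules, read 7.93, 8.31, 8.52 and 8.30 in WT and 8.97, 9.08, 8.95 and 8.97 in KO (0.73 ± 0.16, adjusted p = 0.169). In both, each KO array lay above each WT array. Ciita, the transactivator that switches class II genes on, read 5.05, 4.68, 4.84 and 5.49 in WT, where 1 array detected it, and 5.45, 6.07, 5.80 and 5.61 in KO, where all 4 did (0.72 ± 0.19, adjusted p = 0.195). Its WT 4 exceeded KO 1. H2-Oa, H2-Eb1, the invariant chain Cd74, H2-DMb2, H2-Aa, Ifi30 and H2-DMb1 differed by 0.61, 0.36, 0.48, 0.35, 0.29, 0.25 and 0.21, and the protease Ctss by -0.17. H2-Ab1 was among the 7 probes called when Het 1, whose level of 12.01 was the highest of the 11 arrays, was left out of the shared spread.

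Mean deviations of the 11 genes from their WT means were -0.18, 0.01, 0.18 and -0.01 on the WT arrays and 0.36, 0.44, 0.50 and 0.38 on the KO arrays. The Het arrays were spread over both, at 0.43, 0.26 and -0.09. The median difference was 0.37 within slide 1, 0.31 within slide 2 and between 0.30 and 0.53 under all other settings run. Ciita lies on chromosome 16, 187 protein-coding genes from Cldn16 and 2 genes from Clec16a, which was also higher, while the class II chains themselves lie on chromosome 17.

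Class II promoters share a module of S, X and Y boxes, to which RFX and NF-Y bind and Ciita is recruited. The core of the Y box, an inverted CCAAT written GATTGG (or CCAATC on the other strand), was searched on both strands in the promoters that RefSeq gives (GRCm38.p6, 250 bases before to 50 after each start). Of the 11 genes 8 had an entry, with 9 entries in all, and H2-Ab1, Cd74 and Ciita had none. The core stood in 16.1% of all 32851 entries and in 6 of these 9, which belong to 6 genes. The 150 bases before the start are shown for 5 of them because they carry the core close to the start, with the core in capitals, the H2-Eb1 stretch holding it on either strand.
H2-Eb1, chr17:34305717-34305866, plus strand: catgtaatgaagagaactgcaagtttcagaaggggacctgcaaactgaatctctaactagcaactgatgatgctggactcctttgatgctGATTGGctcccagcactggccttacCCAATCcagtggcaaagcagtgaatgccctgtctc
H2-Aa, chr17:34287824-34287973, minus strand: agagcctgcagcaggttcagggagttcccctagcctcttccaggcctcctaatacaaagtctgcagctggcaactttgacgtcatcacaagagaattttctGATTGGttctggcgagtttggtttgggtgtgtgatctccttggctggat
H2-Oa, chr17:34092229-34092378, plus strand: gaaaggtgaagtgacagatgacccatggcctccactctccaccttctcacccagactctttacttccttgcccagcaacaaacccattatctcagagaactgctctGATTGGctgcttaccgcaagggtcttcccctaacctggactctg
H2-DMb1, chr17:34153041-34153190, plus strand: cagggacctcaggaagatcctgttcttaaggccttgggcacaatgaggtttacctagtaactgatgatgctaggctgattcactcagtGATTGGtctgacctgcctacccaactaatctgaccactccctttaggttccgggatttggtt
H2-DMb2, chr17:34145099-34145248, plus strand: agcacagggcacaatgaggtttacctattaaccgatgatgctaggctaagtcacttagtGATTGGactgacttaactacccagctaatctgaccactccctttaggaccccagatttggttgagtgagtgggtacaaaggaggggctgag

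The core began 49 bases before the start in H2-Aa, 44 in H2-Oa, 62 in H2-DMb1, 91 in H2-DMb2 and, in H2-Eb1, 60 on the plus strand and 35 on the minus strand. In H2-DMa, which has 2 entries, 1 held it, 199 bases before the start. The match describes the letters of these windows and not binding.

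Markers of macrophages and other myeloid cells went the other way. Of 16 measured genes, 15 were lower in KO and 1, Csf1r, was higher, with a median of -0.28, and 4 reached an unadjusted p under 0.05, all lower (beside 5.82% of all genes). These 4 were also the members with all KO arrays below all WT arrays, a pattern of 3.37% of all genes. Lyz1 and Lyz2, the lysozymes, differed by -0.59 ± 0.16 and -0.53 ± 0.14, S100a8, a neutrophil calcium-binding protein, by -0.73 ± 0.19, and Ms4a7, a macrophage membrane protein, by -0.66 ± 0.21, with adjusted p between 0.195 and 0.239 in limma. Lyz1 read 11.01, 11.03, 10.92 and 10.97 in WT and 10.25, 9.95, 10.71 and 10.64 in KO, so that WT kidneys were close together and KO kidneys were not.

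Mean deviations of the myeloid list were -0.22, 0.09, 0.19 and -0.06 in WT and -0.43, -0.52, -0.09 and -0.22 in KO, so KO 3 lay above WT 1. The median difference was -0.46 within slide 1, -0.16 within slide 2 and -0.12 with the median shift. Of the defining macrophage markers Adgre1 overlapped between groups, at 7.87, 7.77, 8.13 and 7.54 in WT and 7.26, 7.34, 7.88 and 7.62 in KO (-0.30 ± 0.16). Csf1r, whose groups also overlapped, differed by 0.25 ± 0.17 with KO higher.

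Chemokines and cytokines were lower for 15 of 19 genes, with a median of -0.25 that was -0.15 within slide 2 and -0.11 with the median shift. An unadjusted p under 0.05 was reached by 5 genes lower and 1 higher, beside 5.82% and 6.91% of all genes. The T cell chemoattractant Ccl5 read 6.72, 7.62, 7.14 and 7.19 in WT and 6.06, 6.46, 6.57 and 5.82 in KO (-0.94 ± 0.22, adjusted p = 0.181 in limma), with no overlap. Il1b, interleukin-1 beta, differed by -0.56, the lymphoid chemokine Ccl19 by -0.50 and the growth factor Tgfb3 by 0.50. Of 24 interferon response genes 15 were lower and 9 higher, with a median of -0.08 that became 0.06 with the median shift, and Cxcl9 (-0.68) and Bst2 (-0.68) ranked first. The 7 measured T and B lymphocyte genes were split, 4 lower and 3 higher, with a median of -0.12 that became 0.03 without KO 1, KO 4 and Het 3. Cd3d (-0.55), Cd27 (-0.55), Cd3g (-0.39) and Cd3e (-0.12) were lower, and Cd79b (0.45), of the B cell receptor, Cd8b1 (0.25) and Jchain (0.05) were higher. Only Cd8b1, far brighter than the rest (means 12.14 in WT and 12.39 in KO), was detected on all WT and KO arrays. The others lay close to background. Of 16 complement and coagulation genes 10 were lower, with a median of -0.05 that became 0.03 with the median shift and 0.01 without KO 2.

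**Figure D3:**
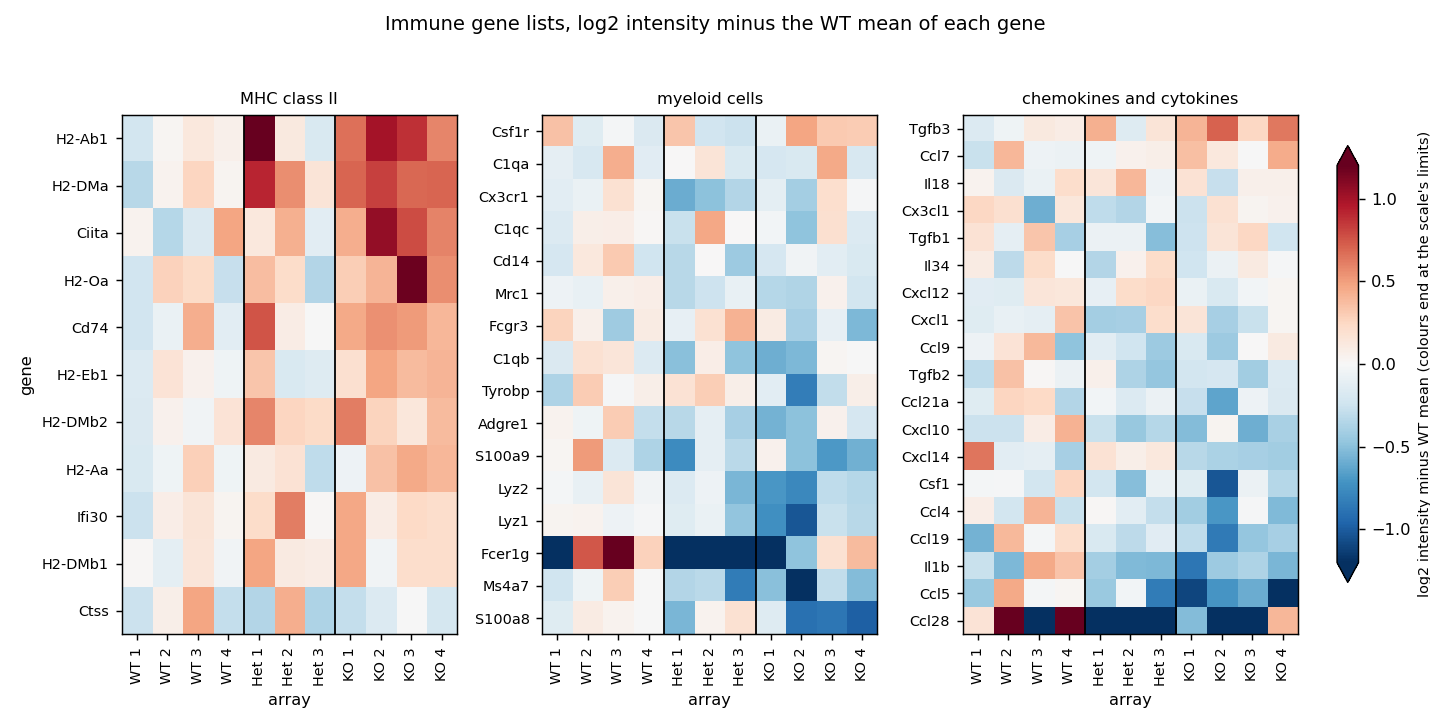
Log2 intensity minus the WT mean of each gene (colour, red higher and blue lower than WT) on the 11 arrays (columns, separated by genotype) for the measured genes (rows) of 3 lists. The KO columns of the MHC class II panel are red for nearly all genes, with Het 1 as red as KO, whereas the KO columns of the other panels are mostly blue; Fcer1g and Ccl28 vary within WT and within KO by more than the group means differ, and Fcer1g is low on all 3 Het arrays.

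Blood was a measured component of these samples. The 5 genes of the blood and erythroid list had a median of -0.70 that was -0.32 without KO 2. Their summed linear level ran from 12800 to 34140 in KO and from 21120 to 42570 in WT, the groups overlapping. Mean deviations were -1.10 and -1.14 for KO 2 and KO 3 but 0.22 and 0.12 for KO 1 and KO 4, and -0.63 for WT 3. Slc4a1, a member of the list, did not follow the haemoglobin genes. It read 11.26 to 11.38 in KO, where Hba-a1 ran from 12.14 to 13.91. On KO 1 to KO 4 Lyz1 read 10.25, 9.95, 10.71 and 10.64, and S100a8 read 5.82, 5.09, 5.11 and 4.99. The part of blood in the lower myeloid and chemokine values was not tested.

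Adipose tissue markers moved with single arrays. Of 14 genes 11 were higher in KO, with a median of 0.32, a summed level of 10200 to 14320 in KO against 9756 to 12080 in WT, and mean deviations of 1.19 for KO 1, 0.99 for KO 4 and 1.22 for Het 3 against -0.28 and 0.04 for KO 2 and KO 3. Ucp1, which uncouples respiration in brown fat, was apart by 1.62 ± 0.57. Without KO 1, KO 4 and Het 3, a setting chosen after the data were seen, the medians were 0.42 for MHC class II, -0.24 for myeloid markers, -0.32 for chemokines and 0.01 for adipose markers, and 4 probes were called, none of them among the 9. Urothelial markers were higher for 8 of 10 genes (median 0.26, and 0.06 within slide 2 and -0.01 without these 3 arrays). Of 6 skeletal muscle genes 4 were higher, and the 4 measured adrenal genes were close to background, detected on all 8 arrays in none.

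Genes of the proximal tubule lay slightly higher in KO. Of 17 enzymes and receptors 13 were higher, with a median of 0.17 that was 0.09 within slide 1, and 3 reached an unadjusted p under 0.05, all higher (beside 6.91% of all genes). Mean deviations were -0.04, 0.02, 0.01 and 0.02 in WT and 0.10, 0.24, 0.15 and 0.17 in KO, each KO array above each WT array. Khk, ketohexokinase, differed by 0.33, the endopeptidase Mme, neprilysin, by 0.27, Ass1, which makes arginine, by 0.24 and Hpd, of tyrosine breakdown, by 0.87, while the endocytic receptor Lrp2 read 14.51, 14.17, 14.18 and 14.29 in WT and 14.32, 14.54, 14.18 and 14.32 in KO.

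Among genes known to respond to androgen in mouse kidney, 6 of 10 were higher, with a median of 0.22 that was 0.06 within slide 2. An unadjusted p under 0.05 was reached by 3, all higher, beside 6.91% of all genes. These were Cyp4a12a, Cyp4b1 (0.61 ± 0.19) and Cyp2e1 (0.60 ± 0.21), whereas Kap, the classical androgen-regulated kidney protein, read 14.75, 14.77, 14.80 and 14.77 in WT and 14.71, 14.83, 14.56 and 14.75 in KO. Enzymes of drug and steroid metabolism were higher for 21 of 34 genes (median 0.05), 6 with an unadjusted p under 0.05 higher and 1 lower, beside 6.91% and 5.82% of all genes. Cyp2d26 read 11.41, 11.80, 11.91 and 11.90 in WT and 12.24, 12.91, 12.26 and 12.38 in KO, without overlap (0.69 ± 0.18, adjusted p = 0.192 in limma), and Hsd3b2, a steroid dehydrogenase, differed by 0.62 ± 0.16. The median of this list was 0.25 within slide 1 and -0.05 within slide 2, so it turned between slides. Of 30 genes of fatty acid oxidation and PPAR alpha targets, 17 were higher (median 0.02).

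Heat shock proteins and chaperones were higher for 18 of 23 genes, with a median of 0.11 and 5 genes at an unadjusted p under 0.05, all higher (beside 6.91% of all genes). Hspa1a, the stress-induced HSP70, read 8.16, 8.11, 8.64 and 8.31 in WT and 9.45, 9.51, 8.35 and 9.30 in KO (0.85 ± 0.23, adjusted p = 0.199 in limma). KO 3 lay within the WT range, as it did for Hspa1b (0.82 ± 0.27), and the list's mean deviation was -0.07 in KO 3 against 0.21 to 0.29 in the other KO arrays. Its median was 0.25 within slide 1 and 0.06 within slide 2. The mitochondrial chaperone Hspa9 differed by 0.24 with every KO array above every WT array. Endoplasmic reticulum stress genes were split, 10 higher and 8 lower.

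Cytosolic ribosomal proteins were lower for 30 of 37 genes, with a median of -0.13. At an unadjusted p under 0.05 there were 3 genes, all lower, so that 8.11% of the list stood beside 5.82% of all genes. Rps25 read 12.07, 11.92, 11.85 and 11.69 in WT and 11.40, 10.83, 11.15 and 11.32 in KO, without overlap. Mean deviations were -0.04, -0.36, -0.08 and -0.05 in KO 1 to KO 4 against -0.06 to 0.09 in WT, so KO 2 stood apart, and the median was -0.05 without KO 2 and -0.06 within slide 2. Mitochondrial respiratory chain genes, the other abundant class, were higher for 21 and lower for 24 of 45, with a median of -0.02.

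Transcripts of glycolysis and of the hypoxia response were mixed. Among 17 glycolytic genes, Ldhb (0.42), the hexokinase Hk1 (0.53) and the pyruvate kinase Pkm (0.51) had the lowest p among those higher, and Slc37a4, the glucose-6-phosphate transporter needed for glucose output, differed by -0.31. Of 20 hypoxia genes 12 were higher, with a median of 0.15 that was 0.01 within slide 2, and the prolyl hydroxylases, sensors of oxygen, differed in opposite directions, Egln1 by 0.26 and Egln3 by -0.46.

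For the extracellular matrix, apart from Tnn, differences were small. Of 30 matrix and remodelling genes 21 were lower, with a median of -0.06 that became 0.06 with the median shift and within slide 2. Lamb2, a laminin chain of basement membranes, differed by 0.43 ± 0.11 and Timp1, a metalloproteinase inhibitor, by -0.57 ± 0.17. Of 22 collagen genes 15 were lower (median -0.10, but 0.03 with the median shift, -0.24 within slide 1 and 0.10 within slide 2). Among them 1 reached an unadjusted p under 0.05, Col4a2 at 0.27 with KO higher, beside 6.91% of all genes. Fibroblast, pericyte and smooth muscle markers were lower for 7 of 12 genes (median -0.08, and 0.05 with the median shift). Tubule injury genes were higher for 9 and lower for 7 of 16. The injury marker Lcn2, lipocalin-2, differed by -0.87 ± 0.25 and the adhesion molecule Vcam1 by -0.47 ± 0.16. Havcr1, another injury marker, differed by -0.61 ± 1.44 and varied widely within both groups.

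Of 35 growth factor genes 18 were higher, led by Mdk, Tgfb3 and Bmp7 (0.35), and of 25 Wnt and Notch genes 16 were higher, led by Wnt4 (0.97 ± 0.32), a ligand of tubule formation, and Sfrp1 (0.58 ± 0.21), a secreted Wnt antagonist. Endothelial markers were higher for 12 of 17 genes (Tie1 0.44, Eng 0.41) and podocyte markers for 5 of 9. Immediate early genes were higher for 11 of 16, with Jund at 0.41 and Jun at -0.48. Circadian clock, cholesterol synthesis and lysosome lists had medians of 0.06, 0.04 and 0.05. With the median shift the sign turned for the amino acid response (-0.05 to 0.09), cell cycle (-0.01 to 0.11), glutathione (-0.05 to 0.05) and proteasome (-0.01 to 0.05) lists. Of the 39 lists described, 24 had a median above 0 and 15 below, and 9 turned sign with the median shift.

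**Figure D4:**
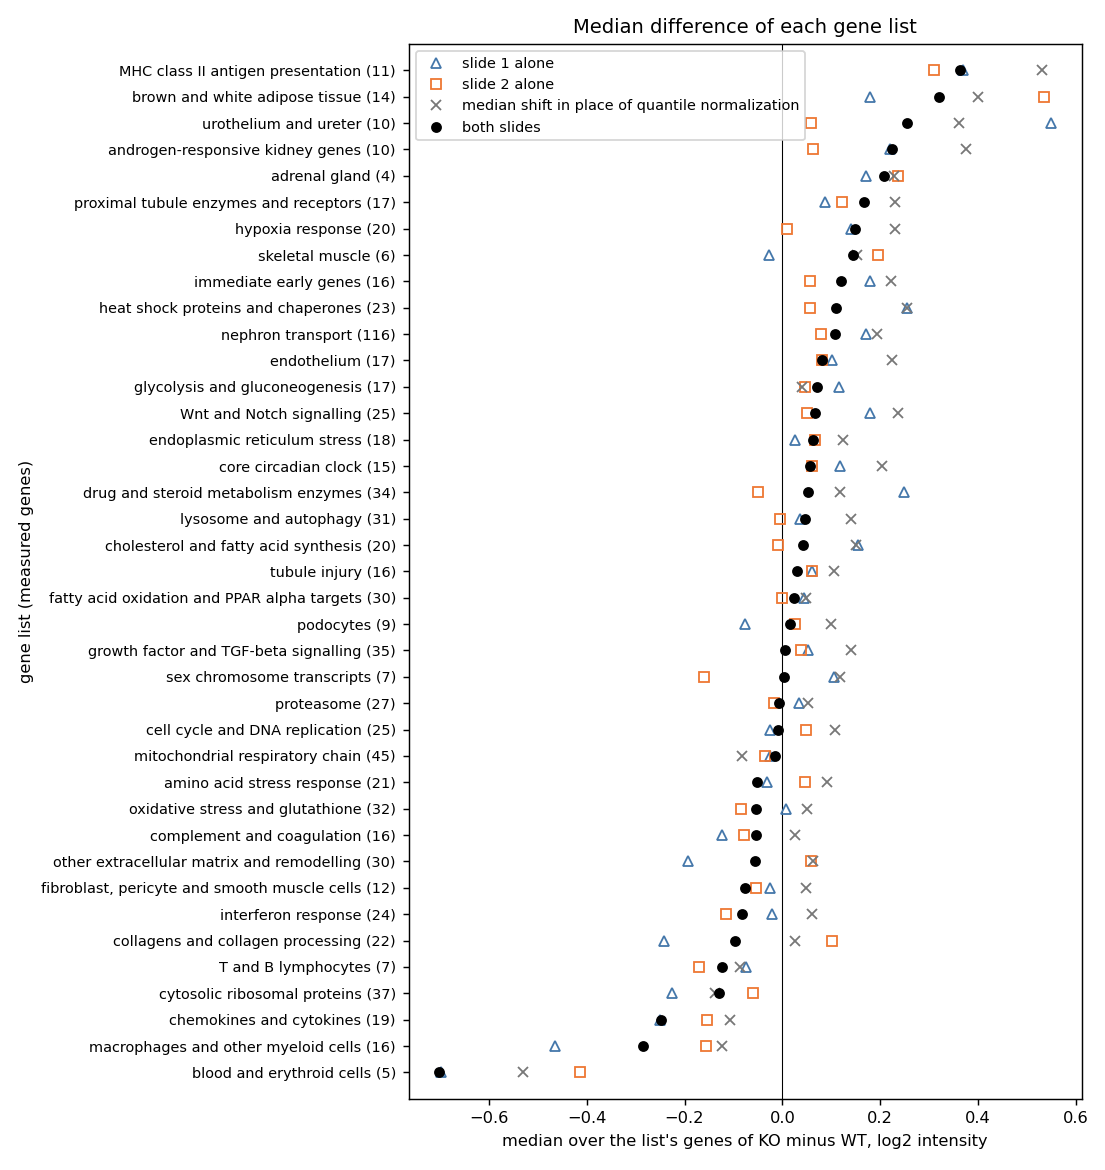
Median over each list's genes of the KO minus WT difference (log2 intensity, horizontal axis) for the 39 lists (vertical axis, number of measured genes in brackets), with both slides (filled circle), each slide alone (open symbols) and the median shift (cross). MHC class II lies highest at 0.36 with both slides close to it, and blood, myeloid and chemokine lists lie lowest.

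For comparison, of 116 nephron transport genes measured 77 were higher and 39 lower, with a median of 0.11. An unadjusted p under 0.05 was reached by 27 higher and 7 lower, beside 6.91% and 5.82% of all genes. Besides Slc8a1 and Ptges, the lowest p belonged to Trpm6 (0.73), the magnesium channel of the distal convoluted tubule, and Atp13a4 (0.99), which lies 11 genes from Cldn16.

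Chromosome 16 carried more small p-values than its share. Of its 403 tested genes, 17.4% had an unadjusted p under 0.05, 43 higher and 27 lower in KO, beside 12.7% of all genes in either direction, and the next chromosome was 12 with 16.1%. Its 11 genes with an unadjusted p under 0.001 were Abhd10, Spidr, Cmss1, Csta2, Clec16a, Cd200, Tbc1d23 (0.54), Atp13a4, Timmdc1 (1.12), B830017H08Rik (-0.68) and Klhl22 (0.54), and no other chromosome had more than 10. Of the 24 genes ranked next to the calls, 5 lie on it. By share of genes with an unadjusted p under 0.05, chromosome 16 ranked first among the 20 chromosomes in all settings but 2. It ranked 3 with all probes tested and 2 without KO 1, KO 4 and Het 3. Counted over probes in the main fit, the shares of chromosomes 16 and 12 were nearly equal, at 17.7% and 17.6%.

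By gene order from Cldn16, 7 of the 27 measured genes within 20 places reached an unadjusted p under 0.05 (25.9%), against 19.8% of genes at 21 to 100 places, 21.6% of 125 genes from there to 200 places and 10% of 140 farther away. The 7 were Atp13a4 (0.99), Trp63 (0.52) and Kng2 (0.35), which were higher in KO, and Lpp (-0.50), Ccdc50 (-0.43), Tmem207 (-0.40) and Tmem44 (-0.27), which were lower. Cldn1, the direct neighbour and another claudin, differed by 0.24 ± 0.16, with overlapping groups. KO mice carry the chromosome 16 segment of the embryonic stem cell strain around the targeted gene, so for genes of this chromosome its alleles and the loss of Cldn16 cannot be told apart.

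**Figure D5:**
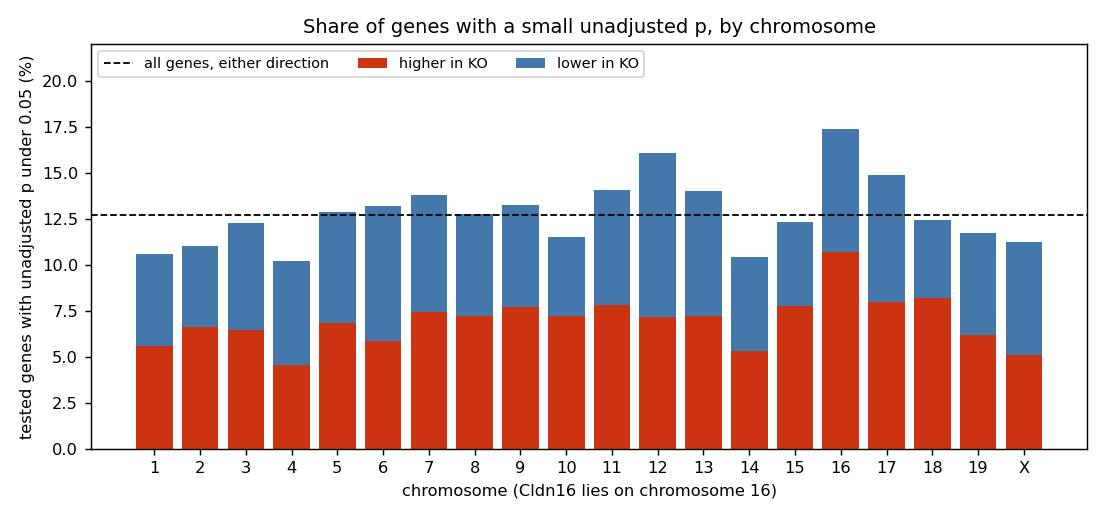
Share of tested genes with an unadjusted p under 0.05 (%, vertical axis) on each chromosome (horizontal axis), split into genes higher (red) and lower (blue) in KO, with the share over all genes, 12.7%, as a dashed line. Chromosome 16 has the tallest bar, 17.4%.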

How the data were processed

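Kidney RNA of 11 mice was measured, and 4 KO and 4 WT arrays were compared. Per the file headers, the authors deposited a linear intensity and a detection p-value for 45281 probes per array, not normalized between arrays. The submitters' processing notes name BeadStudio, without its background setting. A second table the authors deposited holds processed intensities and served as an alternative. Intensities were background-corrected with limma 3.58.1 (R 4.3.3) by normexp, negative controls inferred from detection p, offset 16, followed by quantile normalization and log2, whereas the values the authors deposited were linear. Changes of dim probes are understated. The fit (lmFit, eBayes, two-sided, threshold 0.05) gave all 11 arrays 1 mean per genotype. It was tested on simulated data. The number of arrays limits the precision.

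Symbols came from the platform annotation (1 symbol for 34885 probes, several for 18, none for 10378). Gene order came from GRCm38.p6, and the files name no build, so no gene coordinates are given. The comparison and the gene lists were chosen with earlier results of these data known, as were the named genes: Cldn16, all called probes, the next 12 in each direction, and up to 4 members with the smallest p per list. Genes named outside this rule were chosen after their values were seen. For the p-values, differences were set against the spread between arrays. With 1 array per mouse, the spread between mice and that between arrays cannot be told apart.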

Additional observations from a re-analysis of the deposited data

Results flagged for a closer look

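In 146 groups of 4 arrays (named genes and list deviations in WT or KO), the lowest or highest array was set against its neighbours by Dixon's criterion. It marked 11, and chance marks about 1 in 20 groups. Among genes, Grin3a read 6.135 on WT 4 against 6.675 to 6.733 on the other WT arrays, Ormdl3 read 8.941 on WT 4 against 8.811 to 8.828, and Cd52 read 9.087 on WT 3 against 9.013 to 9.022.

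Among list deviations from the WT mean, KO 2 stood apart in 3. Its cytosolic ribosomal proteins were at -0.362 against -0.08 to -0.039 in the other KO arrays, its respiratory chain genes at -0.162 against -0.039 to -0.017, and its hypoxia genes at 0.151 against 0.018 to 0.04. WT 3 stood apart for heat shock proteins (0.11 against -0.044 to -0.03) and podocyte markers (0.095 against -0.037 to -0.027). WT 4 did so for endoplasmic reticulum stress genes (-0.039 against 0.01 to 0.019) and adrenal genes (0.239 against -0.098 to -0.059), and WT 1 for proximal tubule genes (-0.04 against 0.008 to 0.016).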

How the results depend on the processing

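The 9 called probes and the 24 genes ranked next kept their sign under the 25 other settings. Their selection by small p favours this, as their WT and KO arrays did not overlap. Cldn16 kept its sign too (-0.79 to -0.36, adjusted p 0.159 to 0.898 in limma). The 9 called probes became 6 without background correction, 6 in the authors' processed table, 4 with the slide as a block, 13 within slide 1, 13 with the median shift, 14 with array weights and 4 without KO 1, KO 4 and Het 3 (chosen after the data were seen). There were 0 within slide 2 (1219 at an unadjusted p under 0.05, against 2947), 0 with postnatal day in the model (2824) and 0 from the WT and KO arrays alone (2885). Leaving out single arrays, Het arrays included as a setting added later, gave 0 to 15 calls and 2055 to 2992 probes at an unadjusted p under 0.05. Testing all probes gave 9 calls, of which 5 were among the main 9, and 4480 at an unadjusted p under 0.05. The cause of these changes was not tested. No paired analysis was possible because the labels give no replicate numbers that tie WT to KO mice. Of the list medians, MHC class II stayed above 0 and myeloid markers, chemokines and ribosomal proteins below 0 under all settings run. This was not particular to them. Other lists stayed above 0 too, among them nephron transport (lowest 0.07), proximal tubule (0.09) and heat shock (0.06). Blood (highest -0.32) and the respiratory chain (-0.0025) also stayed below 0.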

Other observations

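Some probes read high on some arrays and low or near background on others of the same genotype. Havcr1, of the tubule injury list, was at 5.73 in WT 3 and between 10.45 and 11.80 on the other WT arrays. In KO it was at 5.63 on KO 4 and between 10.09 and 10.54 on the other arrays, and in Het at 5.64, 9.66 and 10.99. Fcer1g was at 4.32 in WT 1 and 7.72, 8.61 and 7.25 in the other WT arrays, at 4.25 in KO 1 and 6.49, 7.16 and 7.35 in the other KO arrays, and at 4.44, 4.38 and 4.28 in Het. Ccl28 was at 4.74 in WT 3, 5.21 in KO 2 and 5.05 in KO 3, between 7.17 and 9.13 on the other WT and KO arrays, and at 6.49, 5.03 and 5.25 in Het.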
